A study of Mus musculus with 28 samples.

Results

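The 176 genes described here are the chromosomal neighbours of mouse Tardbp, which encodes the RNA-binding protein TDP-43 from chromosome 4. They were taken by position, level and name alone: any gene of the count table that touched the interval from 138612382 to 158627019 (GRCm38), 10 Mb to each side of Tardbp, and averaged at least 1 CPM (counts per 1000000 reads) over all 28 libraries. That interval held 375 genes of the 25900 in the table, and 13923 genes of the whole table reached 1 CPM. Of the 375, 191 lay below 1 CPM (75 of them without a read) and 8 more were left out by name, namely Tardbp, Mtor, Per3 or names starting with Rpl, Dnajc, Kcn or Zfp. No measured difference between genotypes entered this rule, although the members were chosen with earlier results of these data known. The genes nearest the level limit were Gm13091 at 0.992 CPM, Espn at 0.912 and Ubxn10 at 0.856, left out, and Gm16503 at 1.02, Gm13152 at 1.04 and 6330545A04Rik at 1.06, kept.

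Frontal cortex polyA RNA was sequenced from mice aged 20 months on a C57BL/6 background, in 3 genotypes of a Tardbp knock-in allele that changes 1 amino acid of TDP-43, Q331K. There were 10 libraries homozygous for the allele (HOM), 10 heterozygous (HET) and 8 wild-type (WT). Tissue, age, strain background and protocol were shared by all groups. The allele sits in the gene's own locus, and the sources used here give neither the number of founder lines nor the sex, litter or batch of the mice. Nothing in the labels says that libraries stand for separate animals, and the p-values therefore reflect spread among libraries that may be partly technical. Total counts, with M for 1000000 reads, were 30.5 to 62.6 M in HOM, 45 to 74.9 M in HET and 46.5 to 64.1 M in WT libraries. The 4 markers of excitatory neurons were abundant in all groups, with summed levels of 4890 to 5790 CPM in HOM, 5120 to 5660 CPM in HET and 4840 to 5430 CPM in WT.

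TDP-43 binds RNA in the nucleus, where it represses wrongly used exons and shapes splicing, and it also controls the level of its own transcript. The Q331K change is known from amyotrophic lateral sclerosis. Genes on the same stretch of a chromosome need not share a function, and an allele followed through breeding is inherited together with the DNA beside it, so the neighbours of an edited gene are often read apart from the rest of the genome. Tardbp itself, the landmark of the interval (minus strand, 148612382 to 148627019), averaged 349 ± 18.9 CPM in HOM (SD, n = 10), 328 ± 13.3 CPM in HET (n = 10) and 321 ± 13.6 CPM in WT (n = 8). HOM over WT it had a log2 fold change of 0.12 with an SE of 0.03 (adjusted p = 0.0185 by edgeR's quasi-likelihood test). Exons of Masp2 overlap it on the opposite strand.

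The neighbours form a mixed set. They include the lysosomal ATPase gene Atp13a2, the mitochondrial fusion gene Mfn2, the parkinsonism gene Park7, the glycolytic enzyme gene Eno1, the synaptic genes Clstn1 and Kif1b, and a number of predicted genes. There were 75 toward the centromere and 101 toward the telomere, 89 on the plus and 87 on the minus strand. The interval is lopsided, because the last gene of the chromosome in the table ends at 156354578. The first member, Vwa5b1, lies 9.98 Mb from Tardbp and the last, CAAA01066805.1 (Noc2l in GENCODE vM21), 7.61 Mb on the other side. GENCODE vM21 held the identifier of 173 members and gave 167 of them as protein coding.

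Between HOM and WT, 12 of the 176 neighbours passed an adjusted p of 0.05, which is 6.82%, against 7.61% of all 16110 genes tested and 8.42% of the 13253 genes elsewhere that met the same level and name rule. The share of genes called per chromosome, by the same rule, ran from 7.25% on chromosome 14 to 11.4% on chromosomes 1 and X. The share near Tardbp was thus close to the background. The direction was uneven: 10 neighbours were higher in HOM (5.68%, against 3.9% of all genes and 4.25% elsewhere) and 2 were lower (1.14%, against 3.71% and 4.17%). Without HOM 1 and HOM 2, the shallowest libraries, this split was 5 higher and 4 lower. At an unadjusted p of 0.05, 40 neighbours passed (22.7%, against 24.6% of all genes). The differences were small. The median log2 fold change between HOM and WT was 0.031 among the neighbours and 0.005 among all genes. The neighbours' median was 0.015 without HOM 1 and HOM 2, 0.017 without HOM 1 alone and 0.018 under limma voom. In the edgeR fit of all libraries, 123 neighbours (69.9%) lay within 0.1 of no change on the log2 scale, against 67.0% of all genes. Fold changes divide HOM by WT unless another pair is named, so a positive value means higher in HOM. In no neighbour were all HOM libraries outside the range of the WT libraries (0.0%, against 0.459% of all genes). Of the neighbours, 117 had a positive log2 fold change (66.5%, against 52.3% of all genes), which is given as a description because neighbouring genes are not independent of each other.

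**Figure D1:**
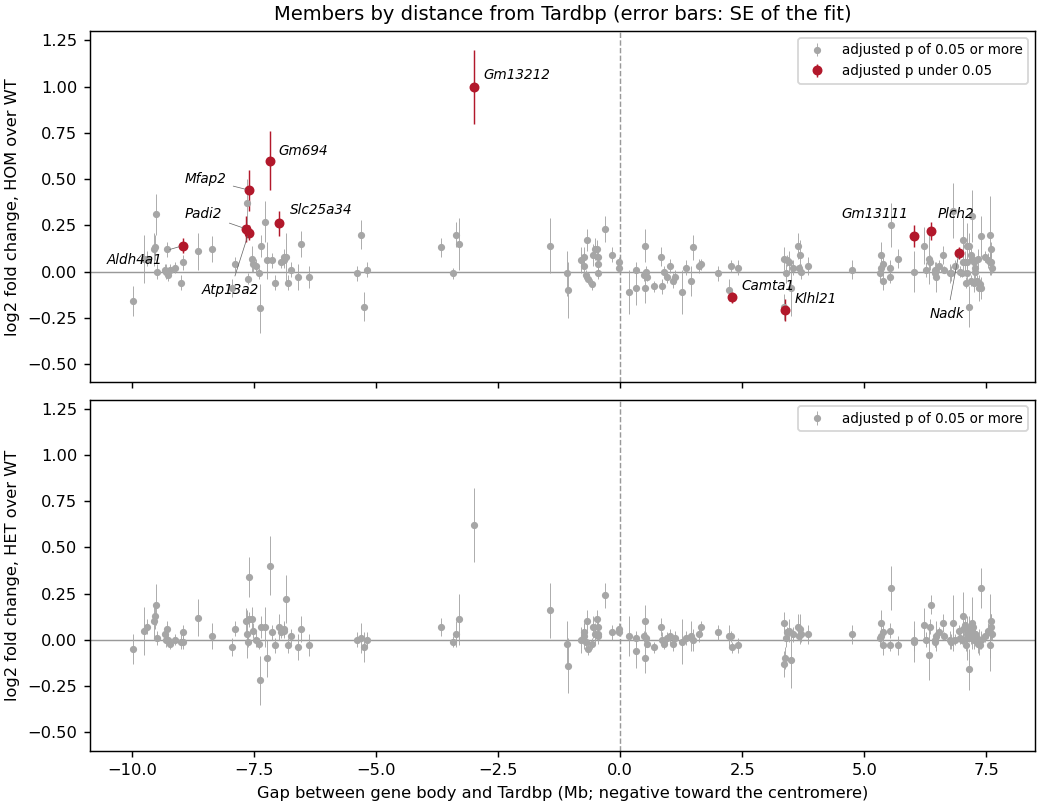
Log2 fold change of each of the 176 members (points, with the SE of the fit) by its distance from Tardbp in Mb, HOM over WT above and HET over WT beneath it. Coloured points passed an adjusted p of 0.05: none lay nearer than 2.29 Mb in the upper panel, and none passed in the lower.

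Of the 10 higher genes, 3 sat close together. Padi2, Atp13a2 and Mfap2 lie with Gm13031 and Sdhb in a stretch of 109.6 kb from 140906344 to 141015984, 7.66 to 7.60 Mb from Tardbp, which was chosen after their values were seen. Atp13a2 (ENSMUSG00000036622, plus strand, 140986873 to 141007330) encodes a lysosomal P-type ATPase that exports polyamines and is mutated in an inherited parkinsonism. It had 137 CPM at the lowest, 145 at the median and 167 at the highest in HOM, 127, 138 and 147 CPM in HET, and 117, 128 and 139 CPM in WT. The groups overlapped, with 8 of 10 HOM libraries above every WT library and HET between them. The log2 fold change between HOM and WT was 0.21 (SE 0.04, adjusted p = 0.00121, edgeR), the smallest p among the members, and it stayed called without any 1 of the 28 libraries.

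Padi2 (ENSMUSG00000028927, plus strand, 140906344 to 140952586) encodes a peptidylarginine deiminase that converts arginine to citrulline, best known in the brain from myelin. Its lowest, median and highest levels were 26.9, 29.0 and 34.0 CPM in HOM, 22.3, 27.1 and 33.2 CPM in HET and 22.9, 25.0 and 30.0 CPM in WT. Only 4 of 10 HOM libraries stood above every WT library. The log2 fold change was 0.23 (SE 0.07, adjusted p = 0.0329, edgeR). The call was lost without HOM 1, 3, 4 or 6 or WT 3, 5, 6 or 7, each left out alone, with an adjusted p of up to 0.0719. The summed level of 5 oligodendrocyte markers, none of them called, was 3200 to 6070 CPM in HOM, 3260 to 4710 CPM in HET and 3290 to 5740 CPM in WT. In bulk tissue, a change in the number of cells of a type and in RNA per cell cannot be told apart.

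Mfap2 (ENSMUSG00000060572, plus strand, 141010418 to 141015984) encodes a protein of the microfibrils on which elastic fibres are laid. It was scarce, with 1.67 CPM at the lowest, 1.96 at the median and 2.81 at the highest in HOM, 1.53, 2.02 and 2.24 CPM in HET, and 1.05, 1.56 and 1.98 CPM in WT. The ranges overlapped, with 5 of 10 HOM libraries above every WT library. The log2 fold change was 0.44 (SE 0.11, adjusted p = 0.0148, edgeR). The 8 markers of meningeal fibroblasts summed to 64.6 to 210 CPM in HOM (median 100), 69.8 to 143 CPM in HET (median 90.2) and 51.2 to 95.5 CPM in WT (median 75.3). Of these markers 2 were called higher in HOM, and their part in the Mfap2 result was not tested.

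The other genes of the stretch did not pass. Sdhb, a subunit of mitochondrial complex II, lies with Gm13031 between Padi2 and Atp13a2 and averaged 98.8 ± 5.93 CPM in HOM, 101 ± 2.33 CPM in HET and 102 ± 3.72 CPM in WT, with a log2 fold change of HOM over WT of -0.04 (adjusted p = 0.362, edgeR). Gm13031, a predicted gene whose exons overlap Padi2 on the other strand, had a log2 fold change of 0.37 (SE 0.13, adjusted p = 0.0839, edgeR). The sources used here do not give the strand setting of the counting, so reads of such a pair may be mixed. In all, 17 members overlap exons of a coding gene on the other strand, and Gm13031 is the only one of them named in this stretch.

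The promoters of Padi2, Atp13a2 and Mfap2 and of the 2 lower genes described next are shown because they are the closest group of called genes and the only genes called lower. Each runs from 150 bases before to 20 after the RefSeq start (GRCm38.p6), 5′ to 3′ on the gene's strand, for Padi2 chr4:140906210-140906379 (plus), Atp13a2 chr4:140986771-140986940 (plus), Mfap2 chr4:141010274-141010443 (plus, 1 of 2 entries), Camta1 chr4:151861749-151861918 (minus) and Klhl21 chr4:152008741-152008910 (plus). Capitals mark matches on either strand to the GC box GGGCGG, the E-box CACGTG or the TATA element TATAAA, and no match overlapped another.
Padi2: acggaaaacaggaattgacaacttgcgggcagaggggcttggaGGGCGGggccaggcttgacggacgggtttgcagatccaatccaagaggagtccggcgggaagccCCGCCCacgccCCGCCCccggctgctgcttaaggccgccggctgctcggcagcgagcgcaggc
Atp13a2: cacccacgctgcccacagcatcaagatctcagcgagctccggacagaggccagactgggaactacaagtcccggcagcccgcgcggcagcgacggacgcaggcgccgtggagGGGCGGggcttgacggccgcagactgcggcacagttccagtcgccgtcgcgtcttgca
Mfap2: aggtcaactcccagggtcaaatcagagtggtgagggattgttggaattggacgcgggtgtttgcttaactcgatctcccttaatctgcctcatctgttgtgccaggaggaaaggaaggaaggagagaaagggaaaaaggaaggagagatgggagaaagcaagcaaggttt
Camta1: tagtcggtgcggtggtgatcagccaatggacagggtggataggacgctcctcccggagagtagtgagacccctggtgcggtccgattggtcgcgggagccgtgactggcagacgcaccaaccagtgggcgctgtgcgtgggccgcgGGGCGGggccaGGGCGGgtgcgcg
Klhl21: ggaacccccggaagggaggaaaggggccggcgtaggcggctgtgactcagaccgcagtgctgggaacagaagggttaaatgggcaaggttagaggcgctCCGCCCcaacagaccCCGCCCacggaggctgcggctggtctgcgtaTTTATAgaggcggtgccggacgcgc

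Padi2 held 3 GC boxes, Atp13a2 held 1 and Mfap2 held no match of any kind. Camta1 held 2 GC boxes, and Klhl21 held 2 and the only TATA element, written TTTATA on its strand. A GC box occurred in 30.3% of the 32851 RefSeq promoters searched over the same 170 bases, a TATA element in 8.1% and an E-box in 4.86%. GC content was 68.8% for Padi2, 69.4% for Atp13a2, 70.0% for Camta1, 65.9% for Klhl21 and 48.8% for Mfap2, against a median of 54.1%. No motif was common to the 3 genes of this stretch that were higher in HOM. A match describes the letters and says nothing of binding. By gene name, 146 of the 176 members were matched to a RefSeq promoter, and members listed there under another name would be missed.

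Other higher genes came from metabolism. Aldh4a1 (ENSMUSG00000028737, plus strand, 139622866 to 139649690), which breaks down proline in mitochondria, had 23.8, 25.2 and 30.3 CPM at the lowest, median and highest in HOM, 22.5, 23.8 and 25.5 CPM in HET, and 20.6, 23.2 and 25.1 CPM in WT, with a log2 fold change of HOM over WT of 0.14 (SE 0.04, adjusted p = 0.034, edgeR). Slc25a34 (ENSMUSG00000040740, minus strand, 141618824 to 141623821), of the mitochondrial carrier family, had 7.39, 9.01 and 9.63 CPM in HOM, 6.15, 7.35 and 9.39 CPM in HET, and 6.58, 7.15 and 8.0 CPM in WT, with a log2 fold change of 0.26 (SE 0.07, adjusted p = 0.0288). Nadk (ENSMUSG00000029063, plus strand, 155562378 to 155591001), the kinase that makes NADP from NAD, had 63.3, 67.8 and 71.8 CPM in HOM, 60.5, 65.4 and 70.0 CPM in HET, and 58.5, 63.0 and 66.7 CPM in WT, with a log2 fold change of 0.10 (SE 0.03, adjusted p = 0.0361). In Slc25a34 and in Nadk 7 of 10 HOM libraries lay above every WT library, and in Aldh4a1 5 did. All 3 calls were lost when certain single libraries were left out. Slc25a34 was lost without HOM 10, WT 2 or WT 6 (adjusted p up to 0.0623, edgeR) and Aldh4a1 without HOM 2, 5 or 10 or WT 2, 3, 6 or 7 (up to 0.0786). Nadk was lost without HOM 1, 2, 3, 5 or 9 or WT 1, 2, 3 or 6 (up to 0.0939).

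On the telomere side, Plch2 (ENSMUSG00000029055, minus strand, 154983115 to 155056784) encodes a neuronal phospholipase C of the eta type, which cleaves a membrane lipid to release calcium signals. Its lowest, median and highest levels were 100, 114 and 130 CPM in HOM, 104, 113 and 118 CPM in HET and 87.4, 97.1 and 116 CPM in WT. The HET libraries lay within the HOM range, and 5 of 10 HOM libraries stood above every WT library. The log2 fold change between HOM and WT was 0.22 (SE 0.05, adjusted p = 0.00827, edgeR) and stayed called without any 1 library.

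The predicted genes Gm13212, Gm694 and Gm13111 completed the higher set. Gm13212 (ENSMUSG00000078502, plus strand, 145585166 to 145625345) had the largest fold change of the 176, with 1.0 CPM at the lowest, 1.43 at the median and 2.16 at the highest in HOM, 0.637, 1.04 and 2.33 CPM in HET, and 0.559, 0.753 and 1.01 CPM in WT. All but 1 of the HOM libraries exceeded every WT library, the log2 fold change was 1.00 (SE 0.20, adjusted p = 0.00321, edgeR), and no left-out library ended the call. It lies in a region of multi-copy predicted genes whose copies may share reads, so its level is uncertain. Gm694 (ENSMUSG00000070637, minus strand, 141432672 to 141436105, named Srarp in GENCODE vM21) had 1.27, 2.24 and 2.62 CPM in HOM, 1.1, 1.89 and 2.67 CPM in HET, and 0.885, 1.43 and 2.23 CPM in WT, with a log2 fold change of 0.60 (SE 0.16, adjusted p = 0.0225). The ranges overlapped widely, with 5 of 10 HOM libraries above every WT library. It was lost without WT 2 or WT 6 (adjusted p up to 0.0568, edgeR). Gm13111 (ENSMUSG00000085069, plus strand, 154637576 to 154644716), an antisense transcript that starts 703 bp from Prdm16 and runs away from it, had 18.6, 20.4 and 23.8 CPM in HOM, 15.5, 17.8 and 21.0 CPM in HET, and 15.5, 18.2 and 20.2 CPM in WT, with a log2 fold change of 0.19 (SE 0.06, adjusted p = 0.0489). HET and WT covered nearly the same range, and 5 of 10 HOM libraries stood above every WT library. Its call was the least stable, lost in 20 of 28 fits that left out 1 library, with an adjusted p of up to 0.12. Those libraries were HOM 1, 2, 4, 5, 6, 9 and 10, HET 1, 2, 3, 5, 6, 7 and 9, and WT 1, 2, 3, 5, 6 and 7.

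Only Camta1 and Klhl21 were lower in HOM. Camta1 (ENSMUSG00000014592, minus strand, 150917322 to 151861876) encodes a calmodulin-binding transcription activator abundant in neurons, and is the called member nearest Tardbp, 2.29 Mb away. It had 245, 263 and 289 CPM at the lowest, median and highest in HOM, 273, 286 and 303 CPM in HET, and 284, 292 and 317 CPM in WT. Of 10 HOM libraries 8 were below every WT library, and the HET range reached into both. The log2 fold change between HOM and WT was -0.14 (SE 0.03, adjusted p = 0.00515, edgeR), with no call lost on leaving out 1 library. Klhl21 (ENSMUSG00000073700, plus strand, 152008803 to 152017680), an adaptor of cullin ubiquitin ligases that acts in cell division, had 15.9, 18.0 and 21.6 CPM in HOM, 17.1, 19.9 and 22.4 CPM in HET, and 18.2, 20.9 and 23.5 CPM in WT. The overlap was wider here, with 6 of 10 HOM libraries below every WT library and a log2 fold change of -0.21 (SE 0.06, adjusted p = 0.0327, edgeR). Klhl21 was lost without HOM 2, 3 or 6 or WT 1, 2 or 6 (adjusted p up to 0.0775).

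**Figure D2:**
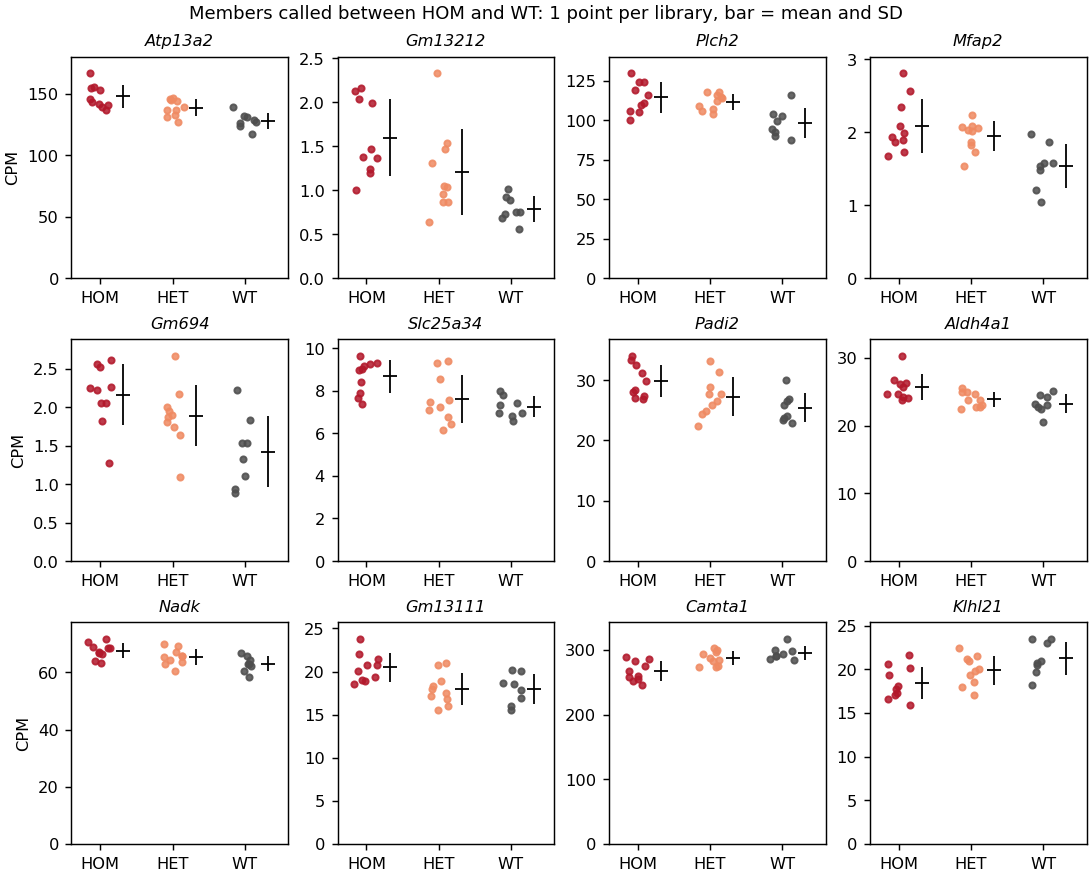
CPM of the 12 members called between HOM and WT in each library (points), with the mean and SD as a bar, for HOM, HET and WT from left to right. The first 10 panels hold the higher genes and the last 2 Camta1 and Klhl21; ranges of HOM and WT overlap in every panel.

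The size of these differences was modest. Of the 12, 3 exceeded 1.2-fold and 2 exceeded 1.5-fold, namely Gm13212 and Gm694, both scarce. Mfap2 was the other gene past 1.2-fold. In all 12 the HET mean lay between the HOM and WT means, as it did in 97.9% of all called genes, and for the 176 members as a whole it did so in 100 (56.8%, against 54.2% of all genes). The 12 were chosen by the gap between HOM and WT, so the count among them is a description.

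The genes closest to Tardbp did not pass the test. Srm, which makes spermidine, ends 17.4 kb from Tardbp and averaged 34.0 ± 2.36 CPM in HOM, 34.3 ± 1.11 CPM in HET and 32.9 ± 1.43 CPM in WT, with a log2 fold change of HOM over WT of 0.05 (SE 0.03, adjusted p = 0.44, edgeR). Exosc10, a nuclease of the nuclear RNA exosome at 30.0 kb, averaged 41.0 ± 1.66 CPM in HOM, 41.7 ± 0.854 CPM in HET and 40.5 ± 1.11 CPM in WT, with a log2 fold change of 0.02 (adjusted p = 0.666). Fbxo2, an F-box protein that recognises glycoproteins in neurons, had 0.08 (adjusted p = 0.203). On the other side the transcription factor gene Casz1 had -0.11 (adjusted p = 0.585), its antisense gene Gm13205 -0.09 (0.556), the peroxisomal import gene Pex14 0.01 (0.899), the DNA fragmentation inhibitor Dffa -0.02 (0.691) and the interneuron peptide gene Cort 0.14 (0.373).

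Ptchd2 (Disp3 in GENCODE vM21), a membrane protein with a Patched-like domain 324 kb from Tardbp, came nearest to the threshold among these. It had 33.4, 36.0 and 46.2 CPM at the lowest, median and highest in HOM, 32.6, 36.4 and 49.7 CPM in HET, and 28.4, 31.6 and 38.0 CPM in WT. The HET range enclosed that of HOM and both overlapped WT, with 4 of 10 HOM libraries above every WT library. The log2 fold change was 0.23 (SE 0.07, adjusted p = 0.0517, edgeR) for HOM over WT and 0.24 (adjusted p = 0.394) for HET over WT. It crossed the threshold for HOM over WT without HOM 4 (0.0489), HOM 8 (0.041), HET 10 (0.0234) or WT 4 (0.0245). It also did so in DESeq2 (0.027) and in the edgeR fit of HOM and WT alone (0.0413).

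**Figure D3:**
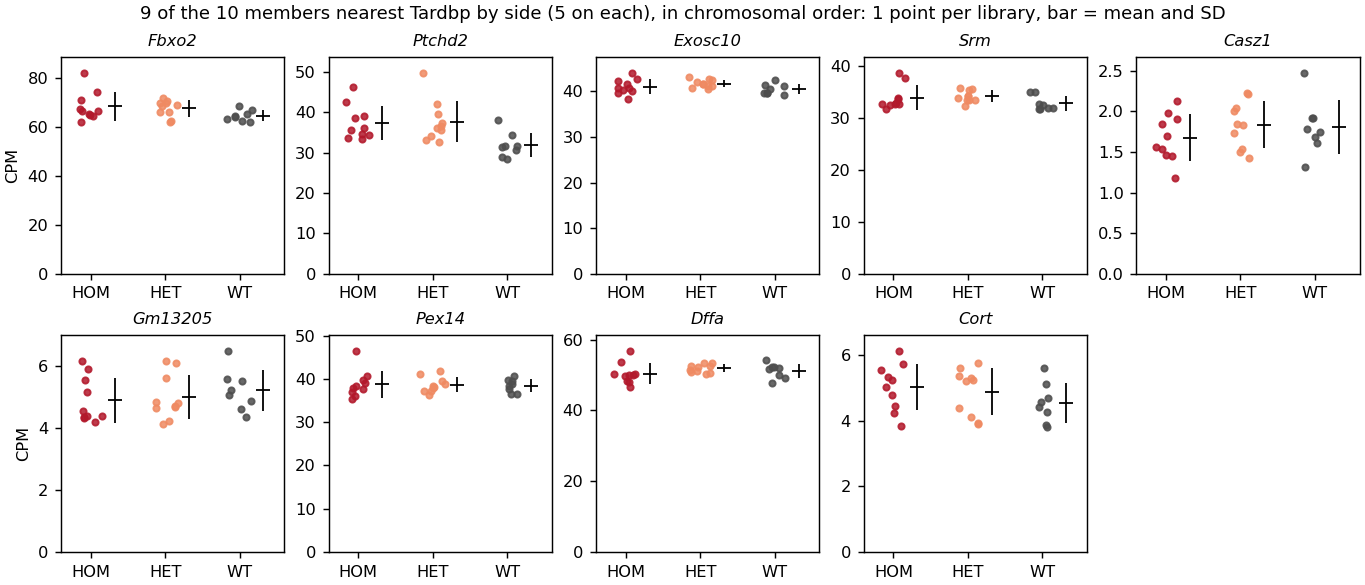
CPM in each library (points), with mean and SD as a bar, for 9 of the 10 members nearest Tardbp by side (5 on each), in chromosomal order, HOM, HET and WT from left to right. The groups overlap in all 9 panels, with log2 fold changes of HOM over WT from -0.11 to 0.23.

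By distance, none of the 42 members within 2 Mb of Tardbp passed in the edgeR fit of all 28 libraries, 30 of them within 1 Mb, although Ptchd2 and Ube4b did in other fits given with them, and 45 members lay nearer than Camta1. From 2 to 5 Mb, 1 of 24 was higher and 2 were lower (12.5% called). From 5 to 7.5 Mb, 5 of 77 were higher (6.49%), and from 7.5 to 10 Mb, 4 of 33 were higher (12.1%). Of all genes tested 7.61% were called, 3.9% higher and 3.71% lower. The median log2 fold change between HOM and WT was 0.015, 0.003, 0.020, 0.032 and 0.061 over the bins of 0 to 1, 1 to 2, 2 to 5, 5 to 7.5 and 7.5 to 10 Mb. On the centromere side 7 of 75 were higher and none lower (9.33% called, median 0.058), and on the telomere side 3 of 101 were higher and 2 lower (4.95%, median 0.018). The difference between the sides was not tested, nor was a trend with distance. Over the rest of chromosome 4, by the same rule, 7.52% of 678 genes were called. From Padi2 to Slc25a34, 717.5 kb chosen after the values were seen, 5 of 17 members were called (29.4%, against 7.61% of all genes), all higher in HOM.

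The role lists behind the groups that follow were amended after the values were seen. By role, the 29 members that serve mitochondria and metabolism had a median log2 fold change of 0.045, with 24 positive (82.8%, against 52.3% of all genes) and 3 called (10.3%, against 7.61%), which are Slc25a34, Aldh4a1 and Nadk. The rest of the group did not pass. It held Plod1, which hydroxylates collagen lysines (0.17, adjusted p = 0.0821, edgeR), and Dhrs3, which reduces retinal (0.13, 0.0748). It also held Eno1 (0.03, 0.603), Mfn2 (-0.02, 0.659) and Park7 (0.03, 0.621). Park7 had 71.7 to 86.1 CPM in HOM and 67.4 to 77.7 CPM in WT, so its groups overlapped broadly.

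Of 21 genes listed as neuronal and synaptic, 2 were called higher and none lower, and the median was 0.029 (9.52% called, against 7.61% of all genes). These were Plch2 and Atp13a2, which the list held although its product is lysosomal. The 6 interneuron markers, 1 called higher and 2 lower, summed to 818 to 973 CPM in HOM, 891 to 955 CPM in HET and 882 to 1020 CPM in WT, and their part in the group's values was not tested. The abundant members were near no change. The synaptic cargo adaptor Clstn1 averaged 1330 ± 100 CPM in HOM, 1370 ± 33.9 CPM in HET and 1360 ± 59.6 CPM in WT (log2 fold change of HOM over WT -0.03, adjusted p = 0.599, edgeR). The kinesin Kif1b, which carries synaptic vesicle precursors, averaged 1130 ± 52.3 CPM in HOM, 1130 ± 24.8 CPM in HET and 1150 ± 21.3 CPM in WT (-0.03, 0.504). The GABA-A receptor delta subunit gene Gabrd had -0.01 (0.959) and the G protein beta subunit gene Gnb1 0.03 (0.513).

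The 18 immune, apoptotic, glial, vascular and matrix genes had the highest median of the role groups, 0.179, with 15 positive (83.3%, against 52.3% of all genes). Only Mfap2 and Padi2 passed (11.1%, against 7.61% of all genes). The TNF receptor gene Tnfrsf1b had 5.17, 5.88 and 7.08 CPM at the lowest, median and highest in HOM and 4.72, 4.99 and 6.30 CPM in WT, with a log2 fold change of HOM over WT of 0.20 (SE 0.07, adjusted p = 0.067, edgeR). It crossed the threshold without WT 1 (0.0299) and in DESeq2 (0.0453). Others that did not pass had values of the same size: Mxra8 0.30 (adjusted p = 0.192), Epha2 0.27 (0.116), Megf6 0.25 (0.2), the podoplanin gene Pdpn 0.20 (0.133) and the interferon-induced Isg15 0.20 (0.58). In Mxra8 and Isg15 the value leans on HOM 3. That library stood at 7.55 CPM for Mxra8 (next HOM library 4.5) and at 3.5 CPM for Isg15 (next 1.96). The apoptotic protease gene Casp9 had -0.06 (0.368). These are scarce transcripts, with 12 of the 18 under 10 CPM. Some markers of several cell types were also called higher in HOM, as were 3.9% of all genes. No tested marker of excitatory neurons, oligodendrocytes, choroid plexus or striatal neurons was called in either direction. Of the choroid plexus list 5 of 6 markers were tested, and of the striatal list 6 of 7. The 6 microglial markers, 4 of them called higher in HOM, summed to 346 to 435 CPM in HOM, 324 to 372 CPM in HET and 313 to 365 CPM in WT. The 8 endothelial and mural markers, 3 of them called higher, summed to 273 to 330 CPM in HOM, 255 to 324 CPM in HET and 259 to 288 CPM in WT. The 6 astrocyte markers, 2 of them called higher, summed to 4410 to 5130 CPM in HOM, 4290 to 5060 CPM in HET and 4280 to 5230 CPM in WT, so the WT range enclosed that of HOM. The meningeal sums are given with Mfap2. No marker of the microglial, endothelial and mural, astrocyte and meningeal lists was at 0, and their part in the group's values was not tested.

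Among 19 genes of transcription, chromatin and genome maintenance, Camta1 was called lower (5.26% called, against 7.61% of all genes) and the median was 0.016. The chromatin reader gene Phf13 had -0.19 (SE 0.07, adjusted p = 0.119, edgeR), the chromatin remodeller gene Chd5 0.00 (0.968), the corepressor gene Rere 0.04 (0.532) and Mad2l2, which acts in DNA repair, 0.12 (0.128). Of 14 genes of ubiquitin and protein quality control, Klhl21 was called lower (7.14% called, against 7.61%) and the median was 0.018. Ube4b, a ubiquitin chain elongation factor, averaged 104 ± 5.0 CPM in HOM, 107 ± 4.01 CPM in HET and 110 ± 2.7 CPM in WT, with -0.08 (adjusted p = 0.0802), and passed without HOM 5 (0.0466).

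None of 8 genes of RNA processing and ribosome assembly passed (0.0%, against 7.61% of all genes, median 0.021). The group includes the splicing cyclin gene Ccnl2 (0.09, adjusted p = 0.171, edgeR), the RNA polymerase phosphatase gene Ssu72 (-0.06, 0.225) and the rRNA processing kinase gene Nol9 (0.06, 0.279). Ssu72 passed in limma voom (-0.09, adjusted p = 0.031) and, in edgeR, without HOM 1 and HOM 2 (-0.098, adjusted p = 0.019). None of 15 genes of membrane traffic and cytoskeleton passed either (0.0%, against 7.61%, median 0.019). The ciliary gene C030017K20Rik, Cfap74 in GENCODE vM21, had 0.33 (adjusted p = 0.171), and the exchange factor genes Arhgef19 and Arhgef10l had 0.14 (0.182) and -0.09 (0.286). The 52 members given no role had 3 called (5.77%, against 7.61%), the predicted genes Gm13212, Gm694 and Gm13111, and a median of 0.024. Nbl1, a secreted BMP antagonist outside these lists, had 24.7 to 52.1 CPM in HOM and 22.5 to 32.5 CPM in WT, with a log2 fold change of 0.31 (SE 0.11, adjusted p = 0.0693). The highest of its HOM values was that of HOM 3, with the next at 38.3 CPM. Medians were 34.1 CPM in HOM and 27.5 CPM in WT.

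**Figure D4:**
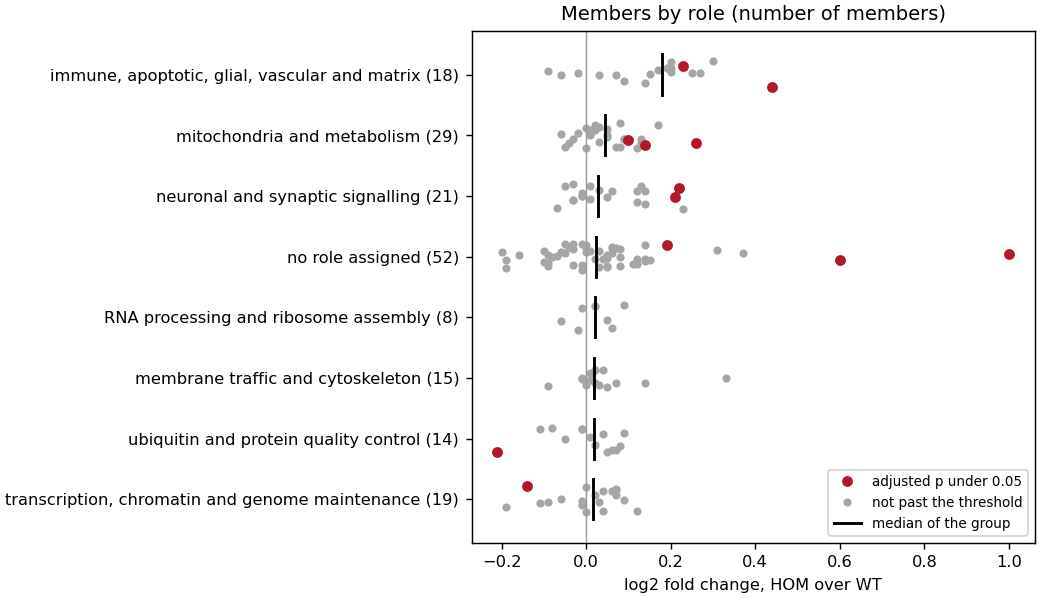
Log2 fold change of HOM over WT (horizontal axis) for each member (points), by role with the number of members, coloured where the adjusted p was under 0.05; the black line is the median of the group. The group of immune, apoptotic, glial, vascular and matrix genes has its median at 0.179 and the other groups between 0.016 and 0.045.

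Heterozygous libraries showed no called neighbour. Between HET and WT, edgeR called 0 of 176 members and 0.0% of all genes. At an unadjusted p of 0.05, 12 members passed (6.82%), against 9.6% of all genes. DESeq2 and limma voom also called 0 members, against 0.0745% and 0.0869% of all genes. The median log2 fold change of HET over WT was 0.024 among members and 121 were positive (68.8%, against 50.5% of all genes). This comparison shares its WT libraries with that of HOM and WT, so the positive shares are not independent. The smallest p among members was that of Plch2, at 0.000737, with a log2 fold change of HET over WT of 0.19 (adjusted p = 0.342), and Ptchd2 came next at 0.0029 (0.394).

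Between HOM and HET, edgeR, DESeq2 and limma voom each called 0 members. Among all genes, edgeR called 6 (0.0372%), DESeq2 0.31% and limma voom 0.242%. At an unadjusted p of 0.05, 13 members passed (7.39%), against 8.54% of all genes. The median log2 fold change between HOM and HET was 0.001, with 91 positive (51.7%, against 51.3% of all genes). Camta1 had the smallest p, 0.0013, with a log2 fold change of -0.10 (adjusted p = 0.235, edgeR). Gm13111 came next, at 0.00239, with 0.19 (0.293).

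The 176 members spanned mean levels of 1.02 to 1350 CPM, with a median of 24.4 CPM. There were 28 above 100 CPM, 94 from 10 to 100 CPM and 54 under 10 CPM. The coefficient of variation over WT libraries had a median of 6.02% and ran from 1.74 to 32.2%. Per kb of exon, on the GENCODE vM21 lengths, Clstn1 had the highest mean level at 290 CPM per kb, then Gnb1 at 145, the calcium-binding actin protein gene Efhd2 at 143, Eno1 at 119 and the acyl-CoA thioesterase gene Acot7 at 96.6. Gnb1 and Efhd2 are close to each other on this scale, which takes no account of which isoform was made. Eno1 averaged 642 ± 38 CPM in HOM, 642 ± 33.9 CPM in HET and 627 ± 31.1 CPM in WT.

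The count of called neighbours depended on which libraries were used. It was 5 without WT 6 and 6 without WT 2, the fits in which all genes gave 595 and 725 calls against 1226. Over all 28 fits that left out 1 library it ran from 5 to 16, while calls among all genes ran from 595 to 1345. Without HOM 3 and WT 6, the ends of the first principal component and left out after the data were seen, it was 7, with Gm694, Klhl21, Padi2, Aldh4a1, Nadk and Gm13111 lost. Without HOM 1 and HOM 2, the shallowest libraries, it was 9 (5.11%, against 5.44% of all genes). The share of members with a positive log2 fold change was then 58.5%, the lowest over 38 settings. Slc25a34, Padi2, Aldh4a1, Nadk and Gm13111 were lost in that fit, and 7 of the 12 genes were kept.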

How the data were processed

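The authors deposited unnormalised read counts for each gene and library, as the whole numbers in the table show. Trim Galore 0.4.3, HISAT2 2.0.5 and the build GRCm38 are named in the submitters' processing notes; per the labels' protocols, libraries came from a stranded mRNA kit with fragmentation shortened to 3 minutes. Which tool counted the reads, with which strand setting and annotation release, is not given in the sources used here. Rows of 57 identifiers that filled several rows were summed; no member was among them.

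All 28 libraries were fitted together with edgeR 4.0.16 in R 4.3.3 (filterByExpr, TMM scaling, robust quasi-likelihood, a mean per genotype, two-sided), with Benjamini-Hochberg adjustment over 16110 genes and a threshold of 0.05. The biological coefficient of variation was 8.46%, and total counts had a median of 53.5 M. Levels are TMM-scaled CPM with the SD between libraries; the 1 CPM limit used raw totals. On simulated counts the fit was checked for recovery of known changes. DESeq2 1.42.0, limma 3.58.1 voom, other scalings, filters and left-out libraries were alternatives.

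The members, role lists and markers were chosen with earlier results of these data known, and role lists were amended after the values were seen. Genes named are the called members, the 5 nearest Tardbp on each side, those with the smallest p in each role group and comparison, the 3 most abundant, and the window's edges. A few members are not reported here. Others in the role paragraphs were chosen after their values were seen. Sequences are from RefSeq.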

Additional observations from a re-analysis of the deposited data

Results flagged for a closer look

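In 120 groups of libraries, covering 39 named members and the library totals in each genotype, 12 had 1 library set apart from the others by a gap that is large against the group's whole range (Dixon's test at 95%). Chance alone flags about 1 group in 20. Each value is in CPM, with the nearest other library after it.

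Among the called members, Gm13212 stood at 2.33 in HET 7, against 1.53 in the next library, Aldh4a1 at 30.3 in HOM 10 (26.7) and Camta1 at 317 in WT 6 (299). The other 9 were not called. HOM 1 was highest for Clstn1 at 1590 (1380), for Eno1 at 738 (665) and for Pex14 at 46.4 (40.6). HET 10 was highest for C030017K20Rik at 3.64 (2.19), for Arhgef19 at 21.6 (16.1) and for CAAA01066805.1 at 96.4 (89.5), and lowest for Kif1b at 1070 (1120). Ssu72 was lowest in WT 5 at 51.6 (53.7), and Gm13152 was highest in HOM 7 at 1.53 (1.18).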

How the results depend on the processing

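Between HOM and WT, 12 members were called. DESeq2 called 16 (9.09%, against 9.7% of all genes) and voom 14 (7.95%, against 8.5%). DESeq2 size factors within edgeR gave 11 (6.25%, against 7.44%) and no filter 11 (6.25%, against 4.82%). A filter of 1 CPM in 8 libraries gave 14 (7.95%, against 8.97%) and only the 2 groups 10 (5.68%, against 5.22%). The share of members called was thus below that of all genes in some settings and above it in others. Lower and higher level limits gave 13 of 193 members (0.5 CPM) and 9 of 141 (5 CPM), against 7.61% of all genes in the main fit. All 12 genes were kept by DESeq2 and by voom. Within 5 Mb of Tardbp, where only 66 members lie, 3 were called, also against 7.61% of all genes. Leaving out each library gave 5 to 16, with 595 to 1345 calls among all genes. Without HOM 3 and WT 6, chosen after seeing the data, 7 were called (3.98%, against 3.16% of all genes). The replicate number as a block gave 7, with Mfap2, Klhl21, Aldh4a1, Nadk and Gm13111 lost, and 737 calls among all genes. Same-numbered HOM and WT libraries had a median correlation of 0.002 and passed 0.1 in 1 of 8 pairs. HET and WT pairs had a median of 0.005 and a highest value of 0.183. HOM and HET pairs had a median of 0.05 and passed 0.1 in 3 of 10. Differently numbered libraries were not compared, so these correlations do not show whether the numbers pair the libraries. No member was called between HET and WT or between HOM and HET in any of these settings.

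Reversals of sign touched uncalled genes near 0 on the log2 scale. Pex14 (0.011) became -0.016 under voom and -0.032 without the 2 shallowest libraries, and ran from -0.022 to 0.023 over the fits that left out 1 library. Dffa (-0.022) became 0.0 without HOM 3 and WT 6. Without the 2 shallowest libraries Gm16503 (-0.102) became 0.003 and Gm13152 (-0.01) became 0.016. Over the fits that left out 1 library Gm13152 ran from -0.087 to 0.015 and CAAA01066805.1 (0.016) from -0.003 to 0.029. The cause was not tested. Depth limits the scarce members: 54 lay under 10 CPM.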

Other observations

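Among the members, 14 pairs (27 genes) lie head to head, on opposite strands with starts within 1000 bp. In 1 of the 14 a gene was called, Gm13111 at a log2 fold change of HOM over WT of 0.19 beside Prdm16 at 0.07. Neither gene of any other pair was called, where 7.61% of all genes tested were. The Gm13111 call was lost in 20 of 28 fits that left out 1 library. The F-box neighbours Fbxo44 and Fbxo2, whose starts are 139 bp apart, had -0.01 and 0.08. Nmnat1, which makes NAD in the nucleus, and Lzic start 27 bp apart and had 0.08 and -0.08. No difference within a pair was tested.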
